A study of Mus musculus with 16 samples.

Results

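The dual-specificity MAP kinase phosphatases were followed in primary mouse bone-marrow-derived macrophages (BMDM) given LPS (lipopolysaccharide, which is sensed through Toll-like receptor 4), alone or with the synthetic glucocorticoid dexamethasone (Dex). The members were chosen by name, as Dusp1, Dusp2, Dusp4, Dusp5, Dusp6, Dusp7, Dusp8, Dusp10 and Dusp16, without use of their values. Of these 9 genes, 8 were analysed among the 9614 genes tested. Dusp10 was not analysed here.

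Enzymes of this family switch MAP kinases off by removing phosphate from both the threonine and the tyrosine of the activation loop. Most are themselves transcribed in response to the kinases they restrain, and so act as negative feedback on ERK, p38 and JNK signalling. In macrophages Dusp1, also known as MKP-1, limits p38 and JNK after Toll-like receptor stimulation and is a known target of the glucocorticoid receptor (GR), the nuclear receptor that Dex binds.

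RNA-seq was run on 16 libraries from 6 male C57BL/6 mice aged 8 weeks, 3 of each genotype. WT cells were LysM-Cre:NELF-B wt/wt and NELF-B KO cells were LysM-Cre:NELF-B fl/fl, so both genotypes carried Cre, which LysM drives in myeloid cells. NELF-B is a subunit of the negative elongation factor, which holds RNA polymerase II paused near the start of genes. Cells were untreated (2 libraries per genotype, mice A and B) or were kept for 1 hr with 10 ng/ml LPS or with 10 ng/ml LPS and 100 nM Dex (3 libraries per genotype and treatment, mice A, B and C). The letters name mice within a genotype, and the untreated, LPS and LPS + Dex libraries of 1 letter and genotype came from the same animal.

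Libraries held 25000000 to 49700000 reads, as recovered from the deposited log2 CPM (log2 of the read count of a gene scaled to the size of its library). As these are bulk libraries, fewer cells of a type and less RNA per cell cannot be told apart. The deleted gene, Nelfb, was at 5.59 to 6.21 log2 CPM in the WT libraries and at 3.27 to 4.38 in the KO libraries. The macrophage markers Csf1r and Cd68 were at 10.03 log2 CPM or higher in all 16 libraries. The untreated library of WT mouse A stood apart, with a correlation of 0.83 to 0.909 with the other libraries across genes. Values of the members that moved without it are given beside the results they touch. Lyz2, the gene whose regulatory elements drive LysM-Cre, ran from 4.30 to 5.30 log2 CPM in the WT and from 5.38 to 6.33 in the KO, and its part in any difference between genotypes was not tested.

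Upstream sequences are shown for the 3 members whose windows held a cyclic AMP response element (CRE) palindrome or a serum response element (SRE), the elements through which CREB family factors and SRF act on immediate-early genes. RefSeq windows (GRCm38.p6) from 250 bases before to 50 after the annotated start were searched on both strands for 7 of the 8 members. The CRE palindrome was TGACGTCA, the CRE core TGACG (each palindrome holds a core on either strand), and the SRE was the CArG consensus. Capitals mark these matches, bases in annotated exons are left off, and each sequence runs 5′ to 3′ on the strand of the gene.
Dusp1 (chr17:26508520-26508722, minus strand): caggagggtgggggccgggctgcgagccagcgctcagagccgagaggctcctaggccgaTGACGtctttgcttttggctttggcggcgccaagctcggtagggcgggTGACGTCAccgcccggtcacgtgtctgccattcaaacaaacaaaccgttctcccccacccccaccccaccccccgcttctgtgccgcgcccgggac
Dusp5 (chr19:53528895-53529108, plus strand): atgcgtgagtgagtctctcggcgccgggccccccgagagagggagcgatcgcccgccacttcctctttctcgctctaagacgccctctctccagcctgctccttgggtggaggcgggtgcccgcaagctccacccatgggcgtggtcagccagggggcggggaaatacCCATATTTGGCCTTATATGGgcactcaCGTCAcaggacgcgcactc
Dusp8 (chr7:142095285-142095534, minus strand): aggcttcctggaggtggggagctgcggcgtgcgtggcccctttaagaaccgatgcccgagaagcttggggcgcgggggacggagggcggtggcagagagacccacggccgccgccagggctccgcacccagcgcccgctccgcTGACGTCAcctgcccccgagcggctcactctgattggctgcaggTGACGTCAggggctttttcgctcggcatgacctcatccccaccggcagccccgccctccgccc

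The Dusp1 window held 1 CRE palindrome, at -143 to -136 from the start, and the Dusp8 window held 2, at -107 to -100 and at -63 to -56. In all, 2 of the 7 windows held the palindrome, against 3.18% of the windows of the genes tested and 1.79% of all 32851 windows. The Dusp5 window held 2 SRE matches, at -82 to -73 and at -72 to -63, and 1.2% of the windows of tested genes held such a match. A CRE core was found in 5 windows, those of Dusp1, Dusp2, Dusp5, Dusp8 and Dusp16, against 32.5% of tested genes. No match in these windows was found for AP-1 (TGANTCA, 5.05% of tested genes), ETS (CCGGAAG, 19.4%), the GR monomer motif (AGAACA, 11.9%) or the NF-kB consensus (10.3%). These are letter matches in short windows, and occupancy was not measured here.

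In both genotypes LPS raised 6 of the 8 members, and the cytoplasmic ERK phosphatases Dusp6 and Dusp7 were the exceptions. Dex then moved members in opposite directions. Dusp1 and Dusp6 rose and Dusp4 and Dusp8 fell, in WT and KO alike. A gene was called for LPS at an FDR under 0.1 and over 1.5-fold, and for Dex at an FDR under 0.1 and over 1.3-fold, in a limma fit within mice across all genes. Of all genes tested in WT cells, 20.9% were called for LPS (11.8% higher, 9.11% lower), and in KO cells 6.16% (4.04% higher, 2.12% lower). For Dex the WT share was 2.59% (1.37% higher, 1.22% lower) and the KO share 3.02% (1.57% higher, 1.45% lower). These shares depend on the libraries used. For LPS, 2008 genes were called in the WT and 592 in the KO. With only the libraries of that genotype in the fit, the counts were 432 and 678. The WT count also fell without the untreated library of WT mouse A and rose without WT mouse B, and the KO count fell without KO mouse B. The LPS and Dex responses share the LPS libraries, so they are set side by side and not correlated. Over the 8 members the median LPS response (log2) was 2.63 in WT cells and 2.65 in KO cells, beside 0.01 and -0.01 over all genes. Without the untreated library of WT mouse A, all 6 members kept their LPS call in the WT, where the response was then 4.80 for Dusp1, 4.32 for Dusp2, 1.82 for Dusp4, 3.70 for Dusp5, 2.97 for Dusp8 and 1.42 for Dusp16. Dusp6 was then at -0.27 and Dusp7 at -0.53.

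**Figure D1:**
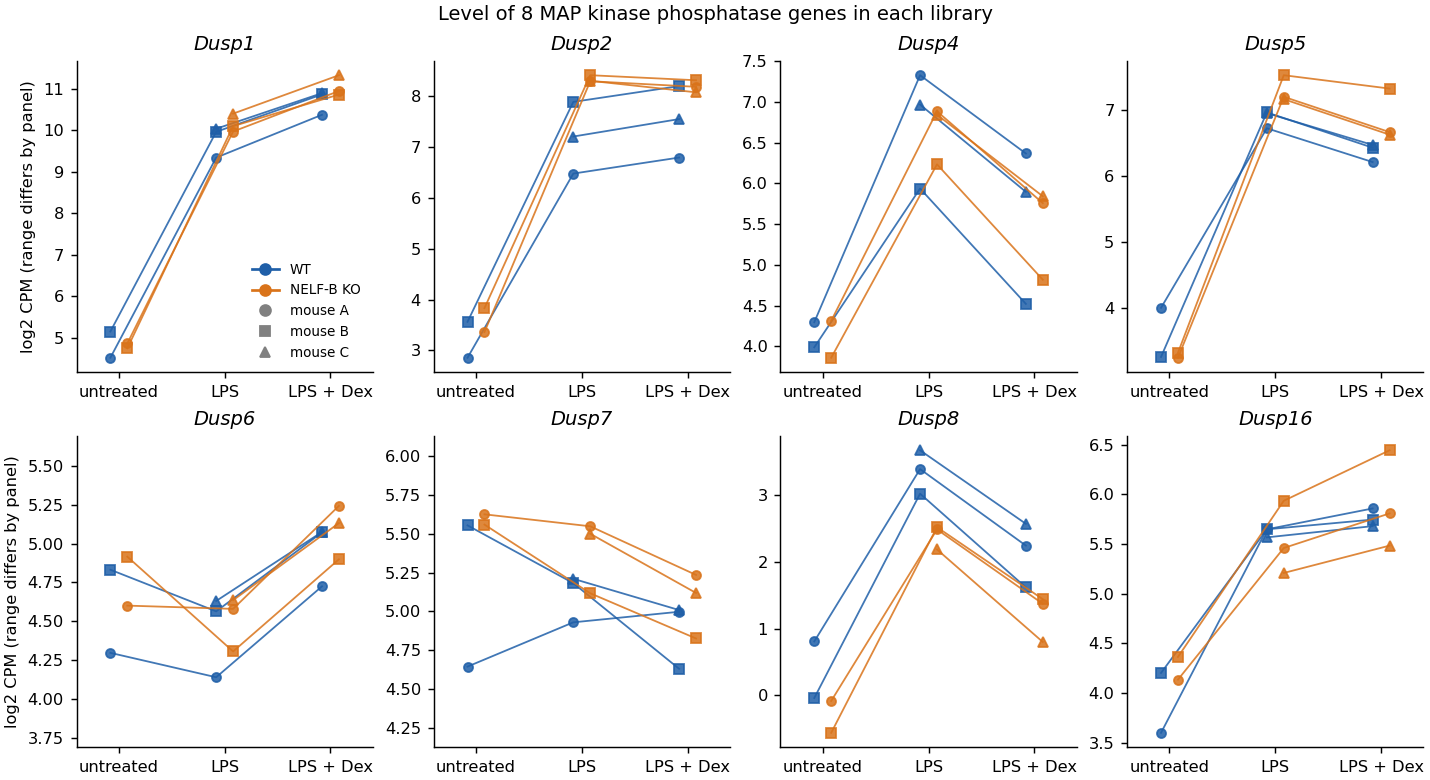
Level of each member (log2 CPM, a range of its own in each panel) in untreated, LPS and LPS + Dex libraries, WT in blue and NELF-B KO in orange, with lines joining libraries of the same mouse. In every mouse with an untreated library the lines of Dusp1, Dusp2, Dusp4, Dusp5, Dusp8 and Dusp16 climb from untreated to LPS, and from LPS to LPS + Dex those of Dusp1 and Dusp6 climb while those of Dusp4 and Dusp8 drop in all 6 mice.

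Dusp1 (chr17:26505590-26562128, minus strand, in the GENCODE annotation of GRCm38) encodes a nuclear phosphatase that prefers p38 and JNK. It was the most strongly LPS-induced member. Untreated WT cells held 4.52 and 5.15 log2 CPM (mice A and B) and untreated KO cells 4.86 and 4.74. With LPS, WT libraries were at 9.35, 9.97 and 10.04 (mice A, B and C) and KO libraries at 9.97, 10.11 and 10.41. Every LPS library lay far above every untreated library, and the genotypes overlapped in each treatment. The fitted LPS response was 4.84 (SE 0.08, 28.7-fold, adjusted p = 4.66e-09) in the WT and 5.23 (SE 0.08, 37.5-fold, adjusted p = 2.41e-09) in the KO, on the log2 scale.

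Dex raised Dusp1 further. LPS + Dex libraries were at 10.38, 10.87 and 10.90 log2 CPM in the WT and at 10.95, 10.87 and 11.33 in the KO. Each mouse rose by a like amount, with same-mouse changes of 1.03, 0.90 and 0.86 in the WT and 0.98, 0.76 and 0.93 in the KO. The fitted Dex response was 0.93 (SE 0.07, 1.91-fold, adjusted p = 0.000238) in the WT and 0.89 (SE 0.07, 1.85-fold, adjusted p = 0.000301) in the KO. The difference between genotypes in this response was -0.04, with a 95% interval of -0.27 to 0.18. No other member was called higher both for LPS and for Dex.

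Dusp2 (chr2:127336159-127338376, plus strand), also called PAC-1, is a nuclear phosphatase first known from activated lymphocytes. Untreated libraries were at 2.86 and 3.56 log2 CPM in the WT and at 3.36 and 3.83 in the KO. LPS libraries were at 6.48, 7.88 and 7.20 in the WT and at 8.29, 8.41 and 8.30 in the KO. The 3 KO libraries lay close together and all above the WT, which spread over more than 1 log2 unit. The LPS response was 3.97 (SE 0.16, 15.6-fold, adjusted p = 8.32e-07) in the WT and 4.77 (SE 0.16, 27.4-fold, adjusted p = 2.02e-07) in the KO.

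With Dex, Dusp2 had changes of opposite sign in the genotypes. LPS + Dex libraries were at 6.79, 8.19 and 7.55 log2 CPM in the WT and at 8.18, 8.31 and 8.07 in the KO. Same-mouse changes were 0.32, 0.31 and 0.34 in the WT and -0.11, -0.10 and -0.23 in the KO. All WT mice were thus higher, as for 17% of all genes, and all KO mice lower, as for 22.4%. The share of genes with both together was not counted. Neither response was called, at 0.32 (SE 0.14, adjusted p = 0.685) in the WT and -0.14 (SE 0.14, adjusted p of 1.0) in the KO. The difference between the responses was -0.47 (SE 0.19, unadjusted p = 0.0407, adjusted p of 1.0), and 27 of 9614 genes had an unadjusted p under 0.05. In a fit chosen after the data were seen, of only the 12 LPS and LPS + Dex libraries with the mouse as a block, the same difference had an SE of 0.048 and an adjusted p of 0.00452. It was then 1 of 2 genes called, and the other, named after its values were seen, was Pfkfb3, which encodes a glycolytic regulator, at 0.39 (SE 0.06, adjusted p = 0.0539).

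Dusp4 (chr8:34807297-34819894, plus strand), or MKP-2, is a nuclear relative of Dusp1. Untreated libraries were at 4.30 and 3.99 log2 CPM in the WT and at 4.31 and 3.86 in the KO. LPS libraries were at 7.33, 5.94 and 6.97 in the WT and at 6.89, 6.24 and 6.84 in the KO. The LPS response was 2.47 (SE 0.28, 5.54-fold, adjusted p = 0.000605) in the WT and 2.43 (SE 0.28, 5.38-fold, adjusted p = 0.000716) in the KO. Mouse B of each genotype was the lowest of its group in all treatments, and the labels of these mice share a date-like string. Its part in the spread was not tested.

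LPS + Dex lowered Dusp4 in every mouse. Levels were 6.37, 4.52 and 5.90 log2 CPM in the WT and 5.76, 4.82 and 5.84 in the KO. Across mice the WT ranges with and without Dex overlapped and the KO ranges did not. Within mice the changes were -0.96, -1.42 and -1.07 in the WT and -1.13, -1.42 and -1.001 in the KO. The fitted Dex response was -1.15 (SE 0.24, 2.22-fold lower, adjusted p = 0.0515) in the WT and -1.18 (SE 0.24, 2.27-fold lower, adjusted p = 0.0411) in the KO.

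Dusp5 (chr19:53529109-53542431, plus strand) encodes a nuclear phosphatase selective for ERK. Its LPS response was 3.21 (SE 0.22, 9.28-fold, adjusted p = 2.12e-05) in the WT and 4.12 (SE 0.22, 17.4-fold, adjusted p = 3.9e-06) in the KO. Untreated levels were 3.999 and 3.25 log2 CPM in the WT and 3.24 and 3.32 in the KO. LPS took them to 6.73, 6.97 and 6.96 in the WT and to 7.20, 7.53 and 7.17 in the KO. The untreated WT mouse A was the highest of the 4 untreated libraries, and the groups did not overlap under LPS.

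With LPS + Dex, Dusp5 was at 6.21, 6.43 and 6.47 log2 CPM in the WT and at 6.67, 7.33 and 6.63 in the KO. The same-mouse changes were -0.51, -0.54 and -0.48 in the WT and -0.54, -0.20 and -0.54 in the KO, lower in 6 of 6 mice. Lower values in all 6 mice were shared by 3 members, Dusp4, Dusp5 and Dusp8, and by 10.4% of all genes. The Dex response of Dusp5 was not called in the fit of 16 libraries (-0.51, SE 0.19, adjusted p = 0.448 in the WT; -0.43, SE 0.19, adjusted p = 0.646 in the KO). Without the untreated library of WT mouse A, it was called in both genotypes, with an adjusted p of 0.000759 and 0.00264.

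**Figure D2:**
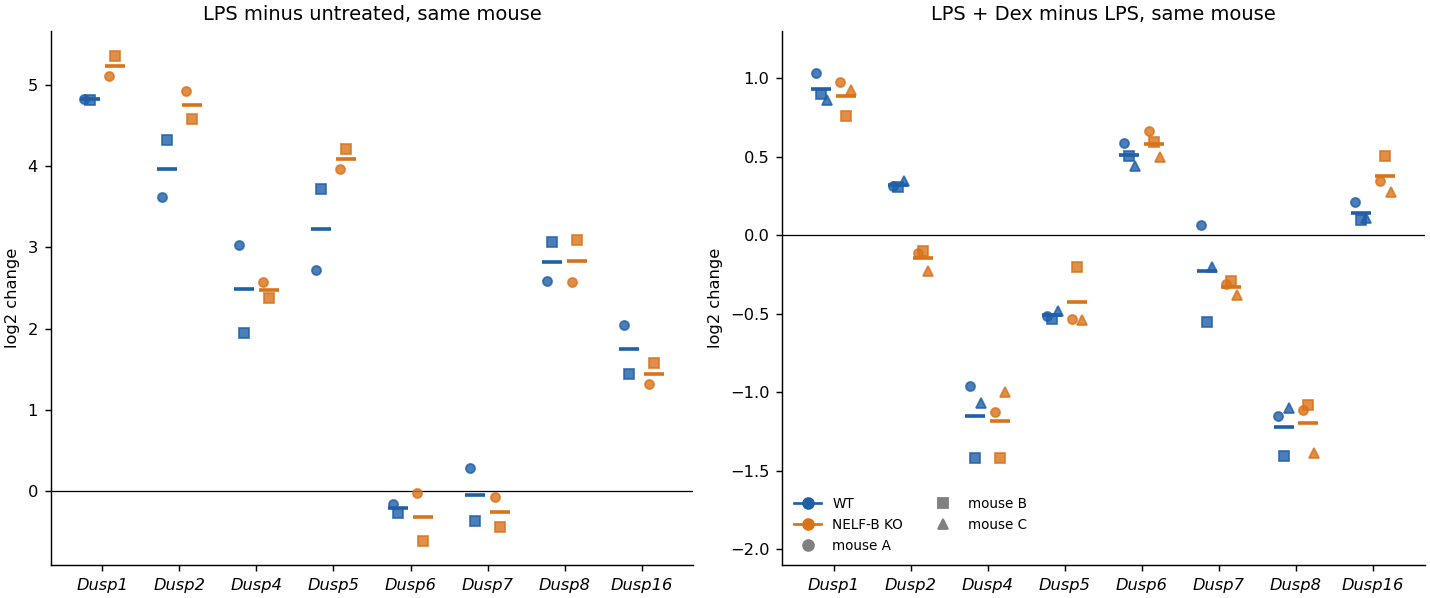
Same-mouse log2 changes of each member, LPS minus untreated on the left (2 mice per genotype) and LPS + Dex minus LPS on the right (3 mice per genotype), with WT in blue, NELF-B KO in orange and a bar at the mean of each genotype. On the right all WT points of Dusp2 lie above 0 (0.31 to 0.34) and all KO points below it (-0.23 to -0.10).

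Dusp6 and Dusp7, the cytoplasmic and ERK-selective members, were not called for LPS, and Dusp6 but not Dusp7 was called for Dex. Dusp6 (chr10:99263231-99267489, plus strand), or MKP-3, had an LPS response of -0.20 (SE 0.14, adjusted p = 0.277) in the WT and -0.29 (SE 0.14, adjusted p = 0.407) in the KO. Untreated levels were 4.30 and 4.83 log2 CPM in the WT and 4.601 and 4.92 in the KO. LPS levels were 4.14, 4.56 and 4.63 in the WT and 4.58, 4.31 and 4.64 in the KO, and these overlapped the untreated ones.

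Dex raised Dusp6 in both genotypes. Its LPS + Dex levels were 4.73, 5.07 and 5.08 log2 CPM in the WT and 5.24, 4.90 and 5.13 in the KO, and every one of them was above every LPS level of its genotype. Same-mouse changes ran from 0.44 to 0.58 in the WT and from 0.50 to 0.66 in the KO. The Dex response was 0.51 (SE 0.12, 1.43-fold, adjusted p = 0.0937) in the WT and 0.58 (SE 0.12, adjusted p = 0.0469) in the KO.

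Dusp7 (chr9:106368632-106375724, plus strand), a close relative of Dusp6 that also acts on ERK, was called in none of these comparisons. Untreated levels were 4.64 and 5.55 log2 CPM in the WT and 5.62 and 5.56 in the KO. LPS levels were 4.93, 5.18 and 5.21 in the WT and 5.55, 5.12 and 5.50 in the KO, and LPS + Dex levels were 5.00, 4.63 and 5.01 and then 5.24, 4.83 and 5.12. The lowest untreated value is that of WT mouse A. The LPS response was -0.05 (SE 0.23) in the WT and -0.25 (SE 0.23) in the KO. The Dex response was -0.23 (SE 0.20) and -0.33 (SE 0.20), with same-mouse changes below 0 in 5 of 6 mice.

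Dusp8 and Dusp16, which prefer JNK and p38, were both LPS-induced but parted under Dex. Dusp8 (chr7:142079490-142095843, minus strand) was the least abundant member, with about 23 to 38 reads in an untreated library. Its untreated levels were 0.81 and -0.04 log2 CPM in the WT and -0.09 and -0.56 in the KO. LPS took it to 3.39, 3.02 and 3.68 in the WT and to 2.49, 2.52 and 2.19 in the KO. The LPS response was 2.80 (SE 0.18, 6.95-fold, adjusted p = 1.35e-05) in the WT and 2.88 (SE 0.18, 7.35-fold, adjusted p = 9.59e-06) in the KO. The difference between these responses was 0.08, with a 95% interval of -0.49 to 0.65.

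With LPS + Dex, Dusp8 was at 2.25, 1.62 and 2.57 log2 CPM in the WT and at 1.37, 1.44 and 0.80 in the KO. All 6 mice dropped by more than 1 log2 unit, with changes of -1.15, -1.41 and -1.10 in the WT and -1.12, -1.08 and -1.39 in the KO. The Dex response was -1.22 (SE 0.15, 2.33-fold lower, adjusted p = 0.00429) in the WT and -1.19 (SE 0.15, 2.29-fold lower, adjusted p = 0.00428) in the KO. Even so, every LPS + Dex library stayed above the untreated libraries of its genotype.

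Dusp16 (chr6:134715468-134792625, minus strand), or MKP-7, was at 3.60 and 4.20 log2 CPM in untreated WT cells and at 4.14 and 4.36 in untreated KO cells. LPS levels were 5.65, 5.65 and 5.57 in the WT and 5.46, 5.93 and 5.21 in the KO. The LPS response was 1.75 (SE 0.16, 3.37-fold, adjusted p = 0.000144) in the WT and 1.47 (SE 0.16, 2.78-fold, adjusted p = 0.000438) in the KO. Its Dex response was not called, at 0.14 (SE 0.14, adjusted p of 1.0) in the WT and 0.38 (SE 0.14, adjusted p = 0.382) in the KO, although the change was above 0 in 6 of 6 mice. That held for 3 members, Dusp1, Dusp6 and Dusp16, and for 9.16% of all genes.

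**Figure D3:**
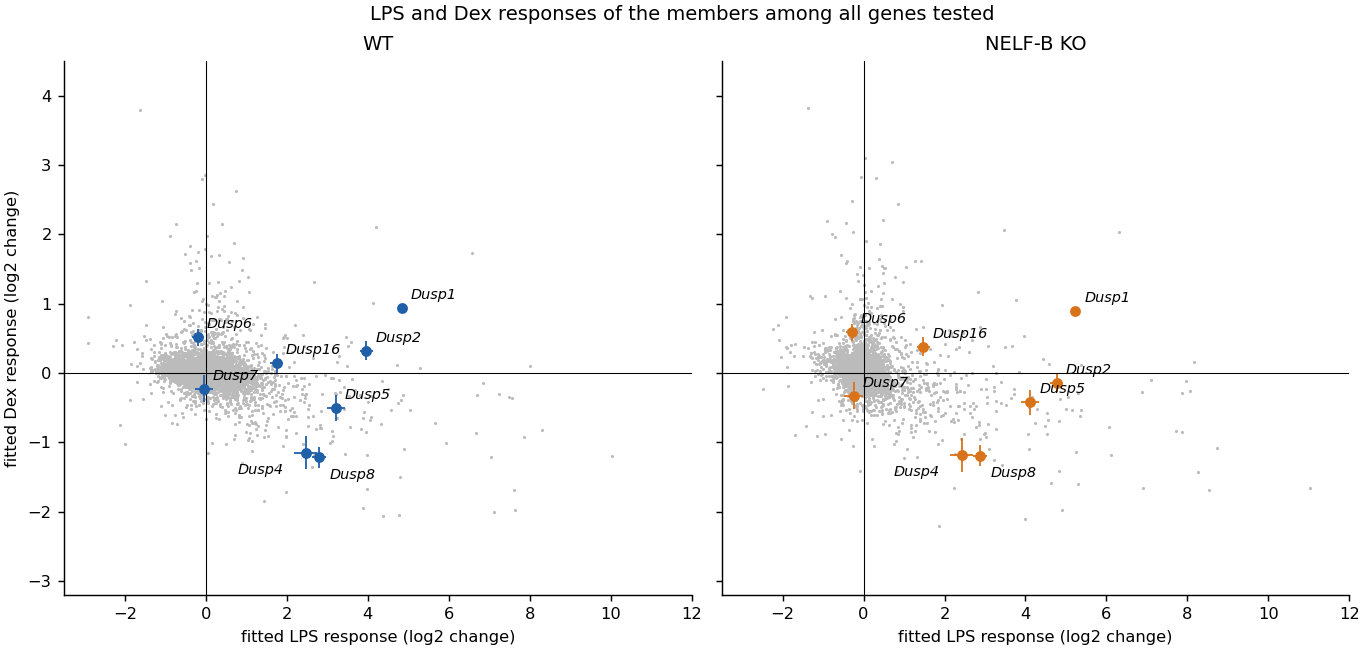
Fitted LPS response (x axis, log2) against fitted Dex response (y axis, log2) of all 9614 genes in grey, with the 8 members as named points, WT on the left and NELF-B KO on the right, and bars of 1 SE. Dusp1 lies at the upper right, Dusp4 and Dusp8 at the lower right and Dusp6 left of 0 on the x axis at 0.51 (WT) and 0.58 (KO) on the y axis. The x and y values share the LPS libraries.

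The Dex calls rest on the pairing of libraries by mouse. Without the mouse as a block 0 of 8 members were called for Dex in either genotype, although the values were the same. Of the 4 called members, Dusp1 and Dusp8 kept their calls when any 1 mouse was left out, while Dusp4 and Dusp6 lost theirs in 3 or more of these 6 fits for at least 1 genotype, as given with the other alternatives in the closing section.

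With the merged exons of each annotated gene as its length, Dusp7 led the family before LPS and Dusp1 after it. For Dusp1 this length was 3311 bases and took in annotated exons upstream of the RefSeq start used above. A shorter length would raise the Dusp1 level per kb, so its order with Dusp7 before LPS depends on the annotation. Summed over the 8 members, untreated cells held 39.8 to 51.9 CPM per kb of exon in the WT and 49.9 to 51.0 in the KO. LPS took the sum to 366 to 520 in the WT and 591 to 694 in the KO. Before LPS Dusp7 took 18.7 to 27.0% in the WT and 27.6 to 29.5% in the KO, while Dusp8 took 0.273 to 0.903% over both genotypes. Dusp4 came close to Dusp7 in WT mouse A, at 18.0%. Dusp1 took 17.4 to 20.6% and 15.9 to 17.6%. After LPS Dusp1 took 53.7 to 61.7% in the WT and 51.4 to 59.0% in the KO, and with Dex 72.4 to 76.3% and 68.2 to 77.8%.

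The order of levels per length was the same in LPS-treated WT and KO cells by group median, from Dusp8 through Dusp16, Dusp6, Dusp7, Dusp4, Dusp5 and Dusp2 to Dusp1. In the WT this ran from 2.16 CPM per kb for Dusp8 to 302 for Dusp1. Neighbours overlapped in the WT for Dusp16 and Dusp6, for Dusp4 and Dusp5, and for Dusp5 and Dusp2. In the KO the Dusp2 libraries, at 156 to 170 CPM per kb, were apart from those of Dusp5, at 58.2 to 74.8, and Dusp16 and Dusp6 were the one overlapping pair of neighbours.

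No member was called for KO against WT at an FDR under 0.05 and over 1.5-fold in limma within each treatment. The largest differences were a higher Dusp2 and a lower Dusp8 in LPS-treated KO cells. By this rule 0 of 9614 genes (0%) were called in any treatment. The deleted gene Nelfb was thus not called either. Under LPS it was at 5.59 to 5.76 log2 CPM in the WT and at 3.27 to 4.21 in the KO. At the same FDR and fold, the paper reports genes that differed between genotypes with LPS + Dex. The lack of calls therefore does not show that NELF-B loss left the members unchanged. At an unadjusted p under 0.05 there were 37 genes in untreated cells, 811 with LPS and 1090 with LPS + Dex. In voom on the recovered reads, 0, 1 and 3 genes were called, none of them a member.

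Dusp2 was 1.14 higher in KO cells under LPS (log2, SE 0.31, 2.21-fold, unadjusted p = 0.00783, adjusted p = 0.302). The lowest KO library, at 8.29 log2 CPM, lay above the highest WT library, at 7.88. With LPS + Dex the difference was 0.68 (SE 0.32, adjusted p = 0.497), and WT mouse B overlapped the KO libraries. Over the alternatives the adjusted p under LPS ran from 0.0374 to 0.806. Without WT mouse B the LPS difference was 1.49 and was called, and without WT mouse A it was 0.79 (adjusted p = 0.628). The LPS + Dex difference was 1.02 without WT mouse B and 0.32 without WT mouse A, called in neither.

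Dusp8 was lower in the KO in all treatments, and its genotypes did not overlap in any of them. The treatments share mice, so they are not independent of each other. Untreated WT mouse B, at -0.04 log2 CPM, lay just above untreated KO mouse A, at -0.09. Under LPS the difference was -0.97 (SE 0.20, 1.95-fold lower, unadjusted p = 0.00183, adjusted p = 0.254), and with LPS + Dex -0.94 (SE 0.32, 1.92-fold lower, adjusted p = 0.326). In untreated cells it was -0.71 (SE 0.59, adjusted p = 0.889), on 23 to 38 reads a library, and -0.28 without the untreated library of WT mouse A.

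Dusp5 was higher in the KO without overlap after LPS, by 0.42 (SE 0.13, 1.34-fold, adjusted p = 0.380), and after LPS + Dex, by 0.50 (SE 0.20, 1.42-fold, adjusted p = 0.397). Untreated cells gave -0.35 (SE 0.36), and this turned to 0.03 without the untreated library of WT mouse A. Under LPS, groups without overlap were found for 3 members, 2 higher and 1 lower in the KO, against 13.7% of all genes (5.91% higher, 7.82% lower). With LPS + Dex there were 2, 1 in each direction, against 17.8% (8.93% higher, 8.83% lower), and in untreated cells 2, 1 in each direction, against 29.4% (15.7% higher, 13.8% lower). The untreated pair was Dusp8 and Dusp7, which was 0.49 higher in the KO (SE 0.38) with the WT mouse B and KO mouse B libraries at 5.55 and 5.56 log2 CPM. Without the untreated library of WT mouse A this Dusp7 difference was 0.04.

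Dusp1, Dusp4, Dusp6 and Dusp16 overlapped between genotypes in each treatment. Their differences ran from -0.12 to 0.38, and that of Dusp1 was 0.38 under LPS (95% interval -0.12 to 0.87) and 0.33 with LPS + Dex (95% interval -0.12 to 0.79). With 3 mice per genotype, differences of this size were not told from 0.

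**Figure D4:**
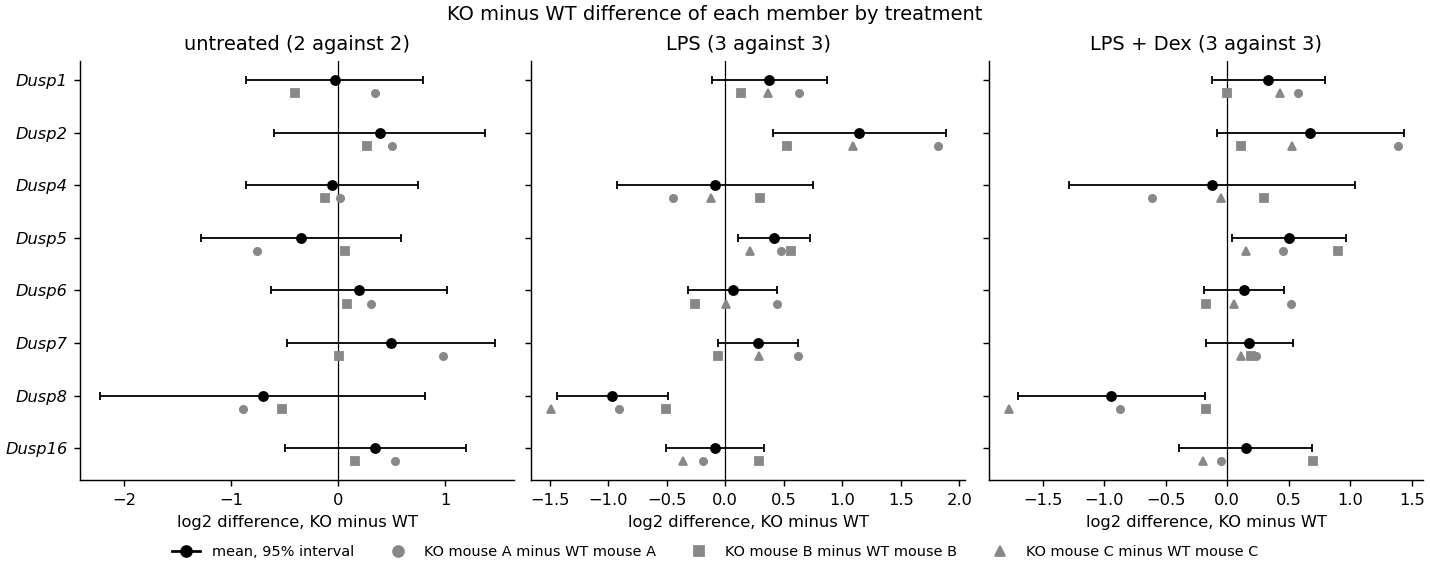
KO minus WT difference of each member (x axis, log2) in untreated, LPS and LPS + Dex cells, with the fitted mean and its 95% interval in black and the difference between mice of the same letter in grey (letters name mice within a genotype and do not tie animals across genotypes). The intervals of Dusp2, Dusp5 and Dusp8 leave out 0 under LPS, and those of Dusp5 and Dusp8 under LPS + Dex, before adjustment over all genes.

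The LPS response itself was compared between genotypes within mice. It was 0.81 larger in the KO for Dusp2 (SE 0.23), 0.90 for Dusp5 (SE 0.31) and 0.39 for Dusp1 (SE 0.11), each with an adjusted p of 0.414. No gene was called, and 396 of 9614 had an unadjusted p under 0.05. Each genotype entered with 2 mice that had an untreated library, and 1 of the WT pair was the library that stood apart. Without that library the differences were 0.46 for Dusp2, 0.42 for Dusp5 and 0.42 for Dusp1. Without WT mouse B they were 1.16, 1.40 and 0.36, all 3 called, in a fit where WT mouse A alone gave the untreated WT level. The other members differed by -0.28 to 0.08, with signs that depended on the libraries used. Apart from Dusp2, Dex responses differed between genotypes by -0.10 to 0.24, with an adjusted p of 1.0 for each.

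Markers of other cell types were compared alongside. The summed level of 7 of 8 listed macrophage markers was 6622 to 7082 CPM in LPS-treated WT cells and 6970 to 7730 in the KO, and 6586 to 6907 against 7190 to 7491 with LPS + Dex. Of 6 neutrophil markers 1, S100a8, was measured, at 5.46 to 20.5 CPM in the WT under LPS and 13.9 to 36.3 in the KO. Of 5 stromal markers 4 were measured, with sums of 64.4 to 111 CPM in the WT and 99.7 to 125 in the KO. Of 9 lymphoid markers 1, Cd4, was measured, at 8.77 to 57.8 CPM in the WT under LPS and 5.78 to 34.7 in the KO. Its KO minus WT difference was -1.53 (untreated), -1.26 (LPS) and -1.24 (LPS + Dex) on the log2 scale, called in none (lowest adjusted p = 0.714). Of 5 dendritic markers 1, Ccr7, was measured, at 0.556 to 5.67 CPM in the WT under LPS and 0.507 to 8.36 in the KO, and none of 5 mast cell and erythroid markers was. The part of these cells in the genotype differences was not tested.

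Other genes of the pathway are given by counts from the fit of all 16 libraries. They are to be read beside the 20.9% (WT) and 6.16% (KO) of all genes called for LPS. For Dex these shares were 2.59% and 3.02%. The counts were not redone without the untreated library of WT mouse A. With only the libraries of each genotype in the fit, LPS called 432 of all genes in the WT and 678 in the KO. A larger WT count below is therefore not read as a difference between genotypes. Of 8 MAP kinases measured, LPS raised 1 in each genotype, Mapk6, which encodes the atypical kinase ERK3, by 1.23 (SE 0.16) in the WT and 1.05 (SE 0.16) in the KO. The median over the 8 was 0.12 and 0.00. Dex changed none of them by the rule in either genotype.

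Among 18 upstream MAP2 and MAP3 kinases LPS raised 3 and lowered 1 in the WT, where Map3k2 rose by 0.77 (SE 0.24) and Map2k2 fell by 0.77 (SE 0.30). In the KO it raised 1, Map3k14, which encodes the NF-kB-inducing kinase, by 0.64 (SE 0.09). Map3k14 fell with Dex in both genotypes, at -0.49 (SE 0.08) and -0.52 (SE 0.08), and Dex raised Map3k6, which encodes a stress-activated kinase of the ASK family, by 1.70 (SE 0.17) and 1.86 (SE 0.17). Of 10 kinases downstream of MAP kinases, LPS raised 3 in the WT and 1 in the KO. Mapkapk2, which encodes the p38 substrate MK2, rose with LPS by 0.92 (SE 0.07) and 1.13 (SE 0.07) and fell with Dex, at -0.39 (SE 0.06) and -0.44 (SE 0.06).

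Of 9 other feedback inhibitors of receptor and ERK signalling, LPS raised 6 and lowered 1 in the WT and raised 3 in the KO. Errfi1, which encodes an inhibitor of the EGF receptor, rose by 3.89 (SE 0.14) in the WT and 4.29 (SE 0.14) in the KO, and it fell with Dex, at -0.64 (SE 0.12) and -0.52 (SE 0.12). Spred1, which encodes an inhibitor of Ras and Raf signalling, rose with LPS by 1.22 in the WT and 0.92 in the KO. Errfi1 was the only one of the 9 that was called for Dex. Of 7 other genes of the dual-specificity phosphatase family, none was called for LPS or Dex. Their median LPS response was -0.15 (WT) and -0.10 (KO).

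As a check of Dex, 4 of 6 GR-activated genes rose in both genotypes. Tsc22d3, which encodes the anti-inflammatory protein GILZ, rose by 3.80 (SE 0.15) in the WT and 3.82 (SE 0.15) in the KO, and Fkbp5, a GR co-chaperone gene, by 2.86 (SE 0.18) and 3.10 (SE 0.18). Zfp36, which encodes the mRNA decay factor TTP and which p38 also controls, fell with Dex, at -0.63 (SE 0.07) and -0.72 (SE 0.07), after an LPS response of 4.07 and 4.22.

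Genes with the most similar pattern were ranked by Pearson r over the 16 libraries, which share 3 treatments and 6 mice, as a description only. For Dusp1 they were Plk2 (0.99) and Cd69 (0.985), and for Dusp2 Cd69 (0.988) and Pim3 (0.985). Dusp4 was most like Pcdh7 (0.964) and Nck1 (0.955), and Dusp5 most like Rab20 (0.991) and Il6 (0.984), a cytokine gene. Dusp8 followed Gpr84 (0.969) and Tmem171 (0.959), and Dusp16 followed Irak2 (0.971) and Gbp5 (0.967). The values were lower for the members without an LPS response, with Sik1 (0.832) and Ddit4 (0.831) for Dusp6 and Zbtb7a (0.91) and Ndst2 (0.885) for Dusp7.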

How the data were processed

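Polyadenylated RNA of BMDM was sequenced as paired reads. According to the methods and labels, CLC Bio Genomic Workbench aligned the reads to mm10, unique exon reads were counted per gene, and the authors scaled the counts in edgeR by the trimmed mean method and deposited log2 CPM. Whether counting used strand is not given in the sources used here. Reads of Dusp1, Dusp5, Dusp8 and Dusp16 thus cannot be told apart from those of overlapping genes on the opposite strand. Dusp1 also overlaps AC122252.4 and AC122252.1 on its own strand, where counting by strand would not separate them. The table also holds the authors' p-values and FDR values for pairs of groups, which were not used.

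The values of the members did not enter their choice by name. Even so, the members, lists, tests and thresholds were set with earlier results of these data known. The deposited log2 values were fitted with limma 3.58.1 (lmFit, eBayes with trend) in R 4.3.3 for all 9614 genes, with Benjamini-Hochberg adjustment over all of them. LPS and Dex responses came from 1 fit of 16 libraries with the mouse as a block and a step per genotype. KO and WT were compared within each treatment. All tests were two-sided, intervals are 95%, and errors are SE unless stated.

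Pairing comes from animal numbers in the labels. Deviations from group means of libraries from the same mouse correlated at 0.781 to 0.939 for LPS and LPS + Dex and at 0.185 (WT mouse A) to 0.822 for untreated and LPS. Values rose from a floor of -5.152 log2 CPM in equal steps. With a step taken as 1 read, 100.0% of values under 3 CPM were whole within 0.1 read. Read numbers above that are rounded estimates. A floor of 3 reads is 0.0653 to 0.136 CPM, which covers counting error only.

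On simulated data with 200 of 9614 genes changed 2-fold, the fits recovered 82.0% for Dex in the WT. For KO against WT they recovered 71.0% under LPS, 69.0% under LPS + Dex and 0.0% in untreated cells. The KO against WT simulations all took levels and spread from the LPS + Dex libraries, with independent normal noise. They do not carry the spread of the LPS or untreated libraries. Changes of 2 log2 units were recovered at 93.5% under LPS and 93.0% under LPS + Dex. The real fits called 0 genes and missed Nelfb, so these shares are not the power of the real comparisons. Named genes were all members, the 2 genes most like each, and the 2 largest called changes of each list. Pfkfb3 was named after its values were seen. Alternatives were no block, a block of letters, a filter at a mean of 1 log2 CPM, log2(CPM + 1), median centring, voom on recovered reads, fewer libraries, a random effect of mouse and each mouse left out. Levels per kb used the merged length of all annotated exons of a gene in GENCODE (GRCm38), to which all 9 listed members matched.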

Additional observations from a re-analysis of the deposited data

Results flagged for a closer look

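The Dex response of Dusp2 differed between genotypes by -0.468 (KO minus WT, log2). Every WT mouse was higher with Dex (0.31 to 0.34) and every KO mouse lower (-0.23 to -0.10). Of all genes, 17% were higher in all WT mice and 22.4% lower in all KO mice, and the share with both was not counted. The difference did not pass in the fit of all 16 libraries (adjusted p of 1.0) and passed in the fit of the 12 LPS and LPS + Dex libraries (adjusted p = 0.00452). Over 13 alternatives it ran from -0.49 to -0.43, with an adjusted p from 0.00452 to 1.0, and 1 of them called it.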

How the results depend on the processing

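The 6 LPS calls in each genotype held in all 13 alternatives. Without the mouse as a block, 0 members were called for Dex in the WT and 0 in the KO (95 and 123 genes in all), and with only WT libraries 2 were called in the WT (47 genes). Leaving out 1 mouse at a time gave 2 to 5 Dex-called members in the WT and 2 to 5 in the KO, 0 to 6 members for the difference in LPS response, 0 to 2 for KO against WT in untreated cells and 0 to 1 under LPS. The upper values for the difference in LPS response and for untreated cells came without WT mouse B. They rest for the untreated step on WT mouse A alone, whose lone library is assumed to vary like the others. The upper value under LPS (1 member, beside 95 genes) also came without WT mouse B. That comparison holds LPS libraries only, with WT mice A and C. Dusp4 lost its Dex call in the WT without WT mouse C and without KO mouse A, B or C, and in the KO without each KO mouse. Dusp6 lost its call in the WT without WT mouse C or KO mouse C, and in the KO without each KO mouse. In the fit of 12 libraries the difference in Dex response was called for 1 member, Dusp2. That fit, and the one without the untreated library of WT mouse A, were chosen after seeing the data and called 5 members for Dex in each genotype. Among the responses and the larger differences, directions turned for Dusp7 (LPS, WT: 0.008 with no replicate block, and -0.46 to 0.352 without 1 mouse, highest without WT mouse B), Dusp5 (KO against WT, untreated: 0.025 without the untreated library of WT mouse A, and -0.721 to 0.025 without 1 mouse) and Dusp6 (LPS, KO: -0.586 to 0.021 without 1 mouse, highest without KO mouse B), and the cause was not tested. Small differences that were not called also changed sign when 1 mouse was left out, namely KO against WT for Dusp1, Dusp4, Dusp6 and Dusp16 in at least 1 treatment, the difference in LPS response for Dusp4, Dusp6, Dusp7, Dusp8 and Dusp16, and that in Dex response for Dusp1, Dusp4, Dusp5, Dusp7 and Dusp8. The difference in LPS response of Dusp8 (0.08) was also -0.21 on the log2(CPM + 1) scale and -0.26 with no block.

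With mice of the same letter as a replicate block, 0 members were called for KO against WT in any treatment, beside 3, 12 and 48 genes in untreated, LPS and LPS + Dex cells. With the mouse as a random effect the counts were 0 members and 2, 31 and 51 genes. The letters pair animals of different genotypes that share at most a date-like string in the labels. LPS in the WT called 2008 genes (1132 higher, 876 lower), against 2154 with median-centred libraries (893 higher, 1261 lower), 880 with no block, 432 with only WT libraries, 605 without the untreated library of WT mouse A and 609 to 4982 without 1 mouse. With 2 untreated libraries per genotype, the simulation recovered no 2-fold difference between genotypes. Its spread was that of the LPS + Dex libraries. Dusp8 in untreated cells rests on 23 to 38 reads.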

Other observations

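Across the 16 libraries the LPS-induced members fell into no single pattern. Dusp1 and Dusp2 had a Pearson r of 0.967, Dusp2 and Dusp5 0.954, and Dusp4 and Dusp8 0.866. Dusp1 with Dusp4 and with Dusp8 reached 0.672 and 0.677. Dusp5 was between, at 0.935 with Dusp1, 0.805 with Dusp8 and 0.777 with Dusp4. Dusp16 was at 0.925 with Dusp1, 0.909 with Dusp2 and 0.889 with Dusp5, and at 0.65 with Dusp8 and 0.583 with Dusp4. Dusp6 and Dusp7 had values between -0.363 and 0.295 with every other member and with each other (0.043). These describe 3 treatments and 6 mice and carry no test.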
